A study of Mus musculus with 5 samples.

Results

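The transcripts described here carried a score for binding of TAF7L in the distal position class and in no other class. TAF7L is a paralogue of the TFIID subunit TAF7. They were chosen by their TAF7L promoter score of 0, proximal score of 0 and distal score above 0, all from 1 chromatin immunoprecipitation (ChIP) library. This rule took 10862 of 55419 scored transcripts, or 19.6%, and they are called distal-only transcripts below. The remaining transcripts formed 3 classes, with 16039 holding a promoter score, 4588 a proximal but no promoter score, and 23930 no TAF7L score. All distal-only transcripts were found in the table of RNA signals, and 9050 of them had a gene name, from 5142 genes. In 3561 of these genes every listed transcript was distal-only, 1019 had another transcript with a TAF7L promoter score, and 195 had one with a proximal but no promoter score.

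The study profiled testis of 3-month-old mice. Messenger RNA was sequenced from Taf7l knockout males (Taf7l-/Y, with Taf7l being X-linked) and from wild-type males, with 6 RNA extracts pooled into 1 library per genotype. TAF7L and RNA polymerase II (Pol II) were mapped in 1 ChIP library each, labelled wild type, from testes of 10 mice. The shared ChIP protocol also names knockout chromatin, for which no scores were used here, and the IgG control library has no column of its own in the tables. Each RNA library held 100 to 200 M (mega) reads, per the labels, and the depth of the ChIP libraries is unknown. With 1 library per genotype no difference has a replicate check, so changes are described by size, with no test. The authors give a standard deviation (SD) beside each signal, printed below as ±, which is no spread between animals, and neither the labels nor the headers say what it covers. Whole testis was used, so fewer cells of a type and less RNA per cell cannot be told apart.

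TFIID is the general transcription factor that recognises core promoters through the TATA-binding protein and its associated factors (TAFs), and it helps to place Pol II at the start of a gene. TAF7L is a TAF enriched in male germ cells, where it takes part in the expression of genes of spermiogenesis, the maturation of round spermatids into sperm. Binding far from a start site can lie at an enhancer or at the promoter of a neighbouring gene.

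As examples, promoters are printed for 4 distal-only genes, each followed by the neighbouring gene whose TAF7L promoter score was equal to its distal score. The 4 were picked from the highest scores, the highest wild-type signals and the largest changes, so they do not represent the class. The distal sites themselves were not located. Each run holds the 250 bases before and the 50 bases after the RefSeq start (GRCm38.p6), 5′ to 3′ on the gene's strand, with CpG dinucleotides in capitals. Zscan21 (zinc finger protein, distal score 652) lies at chr5:138116655-138116954 on the plus strand and holds 15 CpGs. Cops6 (COP9 signalosome subunit) lies at chr5:138160852-138161151 on the plus strand, 44.2 kb from start to start, and holds 18. Gm9999 (distal score 90) lies at chr7:46976382-46976681 on the plus strand, with 1 CpG. Spty2d1, a histone chaperone gene, lies at chr7:47008365-47008664 on the minus strand, 31.8 kb away, with 22. Wfdc15b (a protease inhibitor of the WAP family, distal score 32.8) lies at chr2:164221614-164221913 on the minus strand, with 7. Its relative Wfdc15a lies at chr2:164200068-164200367 on the same strand, 21.5 kb away, with 9. Tppp2 (a relative of tubulin polymerization-promoting protein, distal score 40.2) lies at chr14:51918511-51918810 on the plus strand, with 1. Mett11d1, a methyltransferase-like gene, lies at chr14:51884592-51884891 on the plus strand, 33.9 kb away, with 17.
Zscan21: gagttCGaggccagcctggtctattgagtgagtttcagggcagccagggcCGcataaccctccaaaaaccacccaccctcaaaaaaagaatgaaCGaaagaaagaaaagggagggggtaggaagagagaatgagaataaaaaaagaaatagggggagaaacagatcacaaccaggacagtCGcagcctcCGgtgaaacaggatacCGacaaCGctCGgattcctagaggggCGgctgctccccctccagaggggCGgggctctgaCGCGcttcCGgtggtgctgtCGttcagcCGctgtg
Cops6: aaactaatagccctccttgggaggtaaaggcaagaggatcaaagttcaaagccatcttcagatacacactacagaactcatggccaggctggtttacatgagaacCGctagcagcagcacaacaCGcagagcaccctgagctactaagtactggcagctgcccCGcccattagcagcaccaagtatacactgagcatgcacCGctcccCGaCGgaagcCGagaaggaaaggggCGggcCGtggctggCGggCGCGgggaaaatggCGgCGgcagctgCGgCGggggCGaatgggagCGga
Gm9999: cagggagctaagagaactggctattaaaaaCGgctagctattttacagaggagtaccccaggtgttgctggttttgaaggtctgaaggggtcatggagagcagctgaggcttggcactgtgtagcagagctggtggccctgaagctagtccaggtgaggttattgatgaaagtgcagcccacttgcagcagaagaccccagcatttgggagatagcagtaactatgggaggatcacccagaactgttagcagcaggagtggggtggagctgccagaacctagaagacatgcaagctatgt
Spty2d1: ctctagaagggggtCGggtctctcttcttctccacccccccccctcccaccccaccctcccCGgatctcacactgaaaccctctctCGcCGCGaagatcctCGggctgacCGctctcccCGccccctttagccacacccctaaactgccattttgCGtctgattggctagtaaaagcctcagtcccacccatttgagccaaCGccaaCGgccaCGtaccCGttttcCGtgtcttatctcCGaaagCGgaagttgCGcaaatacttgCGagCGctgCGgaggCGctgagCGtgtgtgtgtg
Wfdc15b: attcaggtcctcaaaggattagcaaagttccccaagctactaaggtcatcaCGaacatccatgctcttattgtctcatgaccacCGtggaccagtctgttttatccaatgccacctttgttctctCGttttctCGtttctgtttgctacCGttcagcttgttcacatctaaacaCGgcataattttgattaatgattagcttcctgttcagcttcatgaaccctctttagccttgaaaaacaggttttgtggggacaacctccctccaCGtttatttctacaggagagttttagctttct
Wfdc15a: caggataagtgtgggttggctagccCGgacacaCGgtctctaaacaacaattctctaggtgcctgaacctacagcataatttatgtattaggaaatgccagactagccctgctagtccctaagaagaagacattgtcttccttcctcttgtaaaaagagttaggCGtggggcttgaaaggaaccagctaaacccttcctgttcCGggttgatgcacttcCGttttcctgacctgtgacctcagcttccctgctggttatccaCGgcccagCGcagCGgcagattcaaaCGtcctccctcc
Tppp2: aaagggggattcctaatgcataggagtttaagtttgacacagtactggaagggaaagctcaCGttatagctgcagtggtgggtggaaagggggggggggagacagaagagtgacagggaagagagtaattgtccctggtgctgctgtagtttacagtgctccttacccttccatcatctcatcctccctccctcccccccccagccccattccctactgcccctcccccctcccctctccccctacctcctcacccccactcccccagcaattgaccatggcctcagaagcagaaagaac
Mett11d1: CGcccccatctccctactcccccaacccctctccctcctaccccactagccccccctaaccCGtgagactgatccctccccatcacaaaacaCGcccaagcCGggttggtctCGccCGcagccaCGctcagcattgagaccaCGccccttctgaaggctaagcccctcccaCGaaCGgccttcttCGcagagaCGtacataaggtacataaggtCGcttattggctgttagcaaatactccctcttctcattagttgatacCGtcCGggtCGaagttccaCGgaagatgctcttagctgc
The median over all 32851 promoters of the RefSeq table was 7 CpGs, with quartiles of 3 and 20. The promoters of Gm9999 and Tppp2 thus lay below the lower quartile, that of Mett11d1 between the median and the upper quartile, and that of Spty2d1 above the upper quartile. Composition was not compared between the classes, because only 2605 of the 3561 genes with distal-only transcripts alone, 73.2%, matched a promoter in the table.

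Distal TAF7L scores ran from 2.09 to 3160, with a median of 74.4 and quartiles of 51.4 and 98.6. The lowest scores among named members were at Kcnk10, a potassium channel gene, with 2.09, Cd5, a lymphocyte surface gene, with 2.38, and Pla2g5, a phospholipase gene, with 16.5. Just outside the rule, Naif1 had a promoter score of 0.119 beside a distal score of 26.7, and Bpil2 had a proximal score of 2.03 beside a distal score of 71.3. Many members shared a score: the 10862 transcripts held 3282 distinct combinations of chromosome and score, and 9714 of them had their score in common with at least 1 other member. Transcripts with 1 score are therefore no independent observations of binding.

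Most distal scores had an equal on a neighbouring promoter. In 8999 distal-only transcripts, 82.8%, a transcript on the same chromosome within 100 kb had a TAF7L promoter score equal to the distal score in all 3 significant digits. Counting proximal scores too, the number was 9957, or 91.7%. The spans overlapped in 1545 of the 8999 cases, and otherwise the median gap was 18.2 kb. The gaps ended at 50 kb: 2494 lay between 25 and 50 kb, but 4 between 50 and 100 kb and 24 between 100 and 1000 kb. In another 647 cases the only equal promoter score was more than 1000 kb away. The pairs of distal-only gene and neighbour that were found once in RefSeq and on 1 chromosome numbered 1555. Of their start sites, 1423 pairs, or 91.5%, lay within 50 kb. The deposited header does not define the distal class, so 50 kb is what the values show and not a stated limit.

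**Figure D1:**
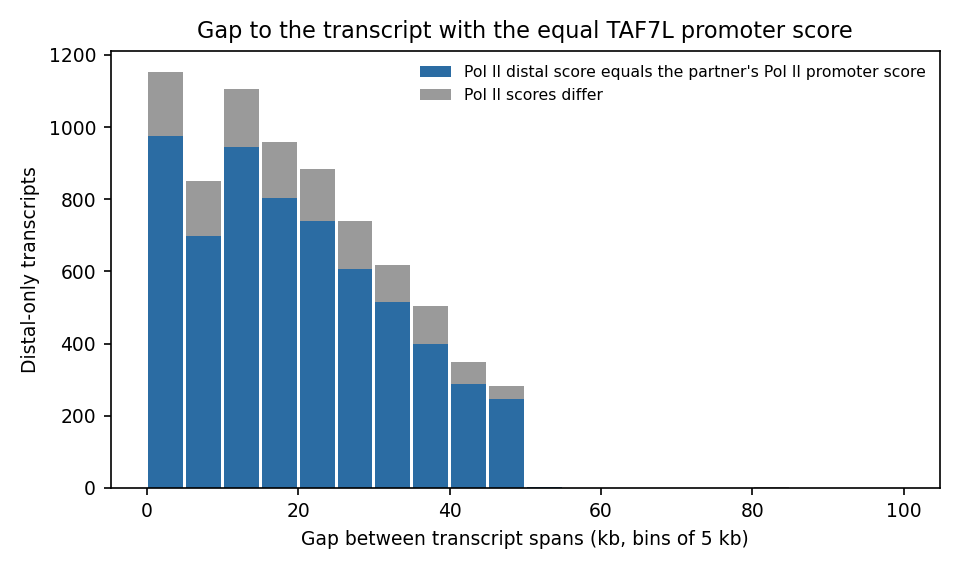
Number of distal-only transcripts (vertical axis) by the gap in kb between their span and that of the transcript with the equal TAF7L promoter score (horizontal axis, bins of 5 kb, overlapping spans left out); blue parts of the bars are transcripts whose Pol II distal score also equals that transcript's Pol II promoter score. Counts decline to 283 in the bin of 45 to 50 kb and drop to 3 in the next bin.

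Pol II scores repeated the match. The rule used no Pol II score, yet the Pol II distal score of the member was equal to the Pol II promoter score of its neighbour in 7586 of 8999 cases, or 84.3%. Where the equal TAF7L score lay over 1000 kb away, this held in 8 of 647 cases, or 1.24%. The neighbour with the equal promoter score is called the partner below. It was another transcript of the same gene for 986 members and a transcript of another or unnamed gene for 8013. A further 958 members matched only a proximal score within 100 kb, and 905 matched neither. These 905 had the lowest median distal score of the 4 groups, with 40.4, against 80.9 for members with a partner in the same gene.

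The share of distal-only transcripts with Pol II at the promoter lay between those of the proximal class and of transcripts without TAF7L. A Pol II promoter score above 0 was listed for 4509 distal-only transcripts, 41.5%, against 99.5% of transcripts with a TAF7L promoter score, 49.1% of those with a proximal score and 29.0% of those with none. Among the transcripts with a Pol II promoter score, its median was 138 in the distal-only class and 506 in the promoter class. A Pol II distal score was listed for 97.8% of distal-only transcripts, against 72.4% of the promoter class, 83.6% of the proximal class, 37.9% of transcripts with no TAF7L score and 63.4% of all transcripts. The partners carried a Pol II promoter score in 99.7% of cases, and the members facing them in 42.1%. Members with the highest Pol II promoter scores were Ttc7, which encodes a tetratricopeptide repeat protein, and the adjoining 4833418N02Rik, with 962 each. Both had a distal TAF7L score of 50.7, equal to the promoter score of Mcfd2, a cargo receptor gene of the secretory pathway. Next were Rabgef1, an exchange factor gene for the GTPase Rab5, with 814, Zscan21 with 812 and Txnip, an inhibitor of thioredoxin, with 797.

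RNA signals of distal-only transcripts were below those of the promoter and proximal classes and above those of transcripts without TAF7L. Their median signal was 1.01 in the knockout library and 0.72 in the wild-type library. Promoter-class transcripts had medians of 6.38 in the knockout and 4.68 in the wild type, proximal ones 2.34 in the knockout and 1.70 in the wild type, and those with no TAF7L score 0.192 in the knockout and 0.144 in the wild type. The header states no unit. The submitters' processing notes name Cufflinks, which gives values per transcript length, but whether the signal is per length is not stated. A mean signal of at least 1 over both libraries, called measured below, was reached by 5288 distal-only transcripts, 48.7%, against 87.9% in the promoter class, 62.0% in the proximal class and 28.5% of those without TAF7L. In the wild type 929 of 10862 distal-only transcripts were listed at 0, and 837 of these were at 0 in both libraries. Over all 55350 transcripts with an RNA value, 5766 were at 0 in the wild type and 5137 in both. A wild-type signal of 100 was reached by 232 distal-only transcripts and by 1475 of all 55350.

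**Figure D2:**
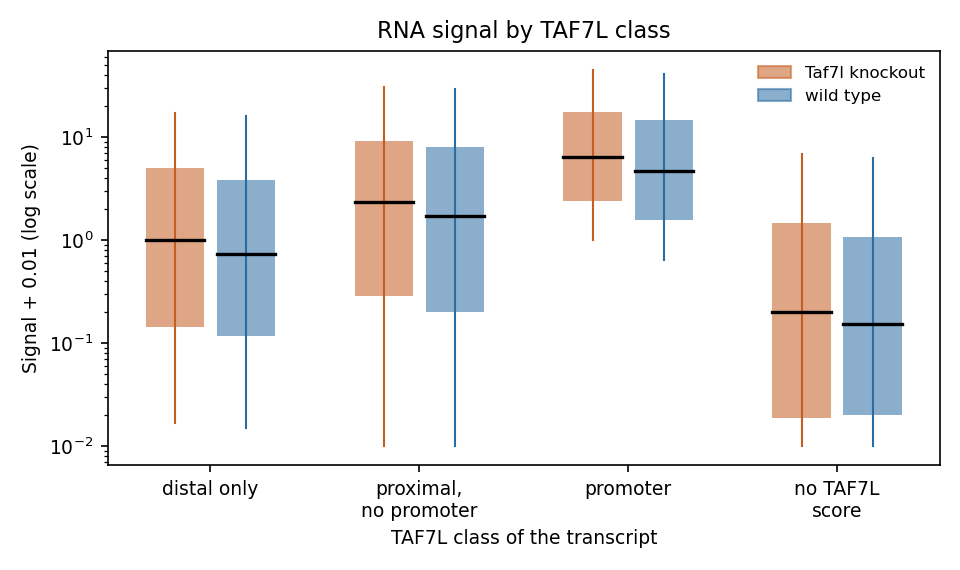
RNA signal plus 0.01 on a log axis for the 4 TAF7L classes, in Taf7l knockout (orange) and wild-type (blue) testis; the boxes span the quartiles over transcripts, black lines are medians and thin lines run between the 10th and 90th percentiles. Medians of distal-only transcripts (1.01 in the knockout, 0.72 in the wild type) lie between those of the proximal class and of transcripts without TAF7L.

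Levels differed with Pol II and with the partner. Distal-only transcripts with a Pol II promoter score had median signals of 2.12 in the knockout and 1.5 in the wild type, and 62.2% were measured. Those without had 0.504 in the knockout and 0.393 in the wild type, and 39.1% were measured. Members whose partner was a transcript of the same gene had medians of 5.06 in the knockout and 3.69 in the wild type, and 85.5% were measured. Where the partner was another transcript, 45.9% were measured, with medians of 0.844 in the knockout and 0.618 in the wild type. The level of the distal score went with smaller steps: 42.4% were measured in the lowest quartile group of scores and 53.4% in the highest, with Pol II promoter scores at 39.1% and 42.3%.

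Among distal-only transcripts with a gene name, the most abundant in the wild type included genes of spermatids and of sperm. Members without a gene name reached higher signals, such as 12529 in the wild type among 68 members that share a score at chr5:150594891-150623962 (mm9). Gm9999, which has no assigned role, had a signal of 229 ± 22.2 in the knockout and 1031 ± 49.0 in the wild type. Signals of 4933411K16Rik were 189 ± 9.98 in the knockout and 936 ± 20.6 in the wild type. Spz1, a leucine zipper transcription factor gene of spermatogenic cells, had 221 ± 9.86 in the knockout and 819 ± 18 in the wild type. These 3 genes were lower in the knockout library by log2 changes of -2.17, -2.30 and -1.89. Hils1, the linker histone of spermatids, had 310 ± 17.3 in the knockout and 774 ± 23.5 in the wild type. Gapdhs, the glyceraldehyde phosphate dehydrogenase of sperm, had 144 ± 5.71 in the knockout and 704 ± 18.1 in the wild type. Their own Pol II promoter scores were 176 at Gm9999, 425 at 4933411K16Rik, 326 at Spz1, 501 at Hils1 and 211 at Gapdhs. The 10 highest named members also held the short RNA genes Mir705, Mir468 and Snord71, and single transcripts of Capzb and Herpud2. Capzb encodes an actin capping subunit, and all 5 had a Pol II promoter score of 0. Mir705 had 2687 ± 1607 in the knockout and 2654 ± 1277 in the wild type, so its SD was large beside its signal in both libraries.

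The change of a transcript was its log2 ratio of knockout to wild type with 1 added to each signal, a scale on which low transcripts appear to change less than they do. Of 5288 measured distal-only transcripts, 369 (6.98%) lay at or above a 2-fold increase in the knockout library, against 5.71% of all 29058 measured transcripts. At or below a 2-fold decrease lay 422 (7.98%), against 6.68% of all measured transcripts. In the promoter class the shares were 3.49% higher and 2.89% lower, in the proximal class 6.43% higher and 8.01% lower, and without TAF7L 9.0% higher and 12.9% lower. The median log2 change was 0.36 for distal-only transcripts, 0.39 in the promoter class and 0.37 over all measured transcripts. Relative to all transcripts the distal-only median was thus near 0. Above 0 lay 3715 of the 5288 distal-only transcripts and 21092 of all 29058 measured transcripts. After the knockout library was rescaled to a median change of 0 over all transcripts, 88 were at least 2-fold higher and 727 lower, against 1.24% higher and 11.6% lower of all transcripts. With 0.1 added in place of 1, distal-only transcripts gave 871 higher (16.5%) and 556 lower (10.5%), against 14.5% higher and 8.68% lower of all measured transcripts. The share of lower ones among those past 2-fold was 53.4% as deposited and 89.2% after rescaling. Over all measured transcripts 1658 were higher and 1940 lower as deposited, and 359 higher and 3375 lower after rescaling. That split was close to the one of the members, so it is no trait of the class. Taf7l itself, a promoter-class gene, had a signal of 2.04 ± 0.60 in the knockout library and 13.2 ± 1.56 in the wild-type library, and where its remaining signal lies relative to the deleted part was not analysed here.

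**Figure D3:**
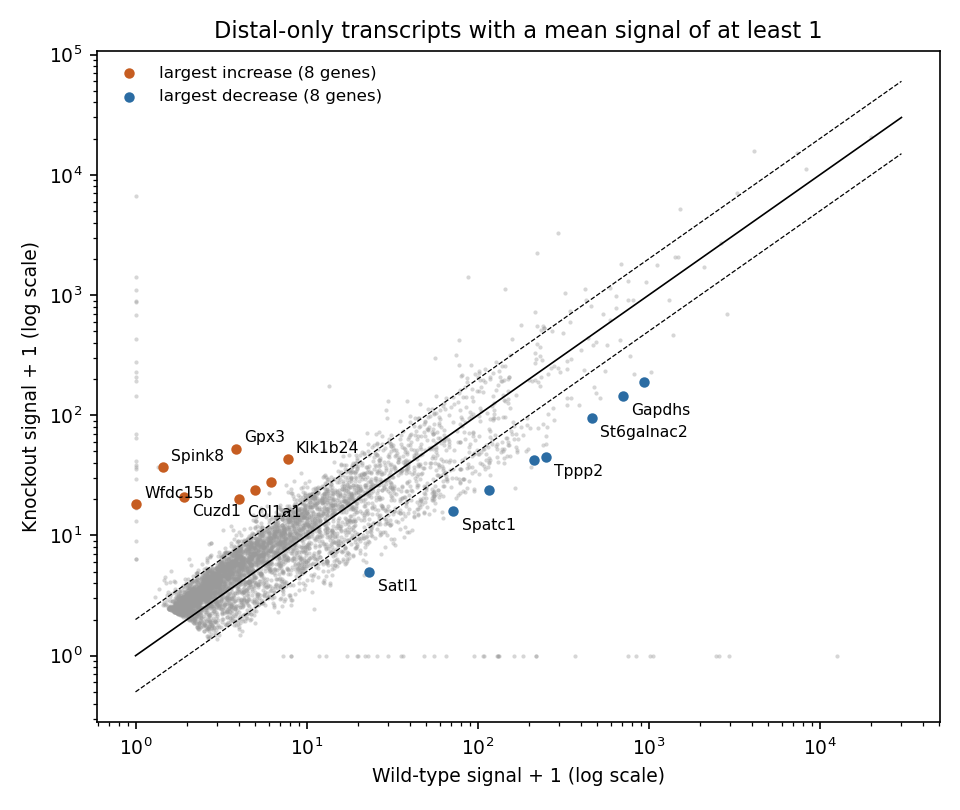
Signal plus 1 of each measured distal-only transcript in the Taf7l knockout library (vertical, log axis) against the wild-type library (horizontal, log axis); the solid line marks equal signals, dashed lines 2-fold differences, orange points the 8 largest increases and blue points the 8 largest decreases among genes with a mean of at least 5. Of 5288 points, 369 lie above the upper and 422 below the lower dashed line, and points on the left and lower edges are listed at 0 in 1 library.

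Markers of several cell types moved with the genotype, and their part in the changes below was not tested. Their signals and counts are as deposited, where the median log2 change of all measured transcripts was 0.37, so increases appear larger than after rescaling. The markers Dhh, Cyp17a1, C1qa and Tagln, all distal-only, were past 2-fold higher as deposited. After rescaling their log2 changes were 0.56, 0.64, 0.94 and 0.56, within 2-fold. Over 5 spermatid markers (Prm1, Prm2, Tnp1, Tnp2 and Acrv1) the summed signal was 10922 in the knockout and 60525 in the wild type, and 5 of 5 were at least 2-fold lower. Over 9 Sertoli cell markers it was 1253 in the knockout and 644 in the wild type, with 5 of 9 at least 2-fold higher. Over 7 Leydig cell markers it was 1577 in the knockout and 1930 in the wild type, with 3 of 7 at least 2-fold higher. Without the hormone gene Insl3 (1052 in the knockout, 1686 in the wild type), the other 6 summed to 526 in the knockout and 244 in the wild type. Star, among these 6, was also lower, with 11.7 in the knockout and 23.5 in the wild type, and the rest were higher. Macrophage markers summed to 77.3 in the knockout and 32.3 in the wild type, with 2 of 5 measured ones at least 2-fold higher. Peritubular markers summed to 98.1 in the knockout and 44.9 in the wild type, with 2 of 4 higher. Spermatogonial markers summed to 24.3 in the knockout and 9.88 in the wild type, and spermatocyte markers to 106 in the knockout and 56.7 in the wild type. Over 5 epididymal markers the sum was 103 in the knockout and 0.056 in the wild type. Of these, Defb2 and Lcn5 were at 0 in the wild type, and Crisp1 had 75.9 in the knockout and 0.042 in the wild type.

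The 8 largest decreases among distal-only genes with a mean of at least 5 included genes of spermatids and of sperm. They were ranked by the change itself, so its size is set by the choice. For Satl1 the knockout signal was below the minimum of 5, which it passed through the wild-type signal. Tppp2 had 44.2 ± 4.64 in the knockout and 249 ± 11.7 in the wild type, a log2 change of -2.47. Its partner Mett11d1 had 2.26 in the knockout and 1.52 in the wild type. St6galnac2, a sialyltransferase gene, had 93.5 ± 4.90 in the knockout and 466 ± 10.3 in the wild type, a change of -2.30. Its partner 1810032O08Rik, with the score of 65.7, had 5.38 in the knockout and 3.74 in the wild type. Spatc1, which encodes the centrosomal protein speriolin, had 14.8 ± 1.23 in the knockout and 71.0 ± 3.48 in the wild type, and its partner Grina had 151 in the knockout and 191 in the wild type. In each of these pairs the member was more than 4-fold lower while the partner was within 2-fold. The members were chosen for their decrease, and only 5.71% of all measured transcripts were higher and 6.68% lower past 2-fold. The difference within pairs is therefore not read as a result. The RIKEN genes 1700001K19Rik (41.6 in the knockout, 212 in the wild type) and 1700080E11Rik (22.7 in the knockout, 116 in the wild type) also belonged to this group. The partner of 1700001K19Rik was Hsp90aa1, a heat shock protein gene, which had a Pol II promoter score of 1980 and signals of 370 in the knockout and 277 in the wild type. X-linked Satl1, a relative of a polyamine acetyltransferase gene, had 3.95 ± 0.846 in the knockout and 22.2 ± 2.25 in the wild type, and its distal score of 152 had no equal in the promoter or proximal class within 100 kb. Gapdhs and 4933411K16Rik completed the 8.

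The 8 largest increases included genes of secreted and matrix proteins. In 6 of them (Spink8, Wfdc15b, Gpx3, Cuzd1, Col1a1 and Prss35) the wild-type signal was below the minimum mean of 5, which they passed through the knockout signal, so a large increase was built into their choice. Spink8, a Kazal-type protease inhibitor gene, had 36.1 ± 4.91 in the knockout and 0.44 ± 0.546 in the wild type, a log2 change of 4.69. Wfdc15b had 17.3 ± 3.20 in the knockout and 0.007 ± 0.058 in the wild type, a change of 4.18, while its partner Wfdc15a had 138 in the knockout and 131 in the wild type. Gpx3, the secreted glutathione peroxidase, had 51.7 ± 4.73 in the knockout and 2.88 ± 1.05 in the wild type, a change of 3.76. Its partner Hint1, with the TAF7L promoter score of 78.7, had 395 in the knockout and 262 in the wild type. The epididymal markers given above were likewise near 0 in the wild type and higher in the knockout, except Lcn5 and Lcn8, which stayed below 0.1 in both. Cuzd1, which encodes a protein with CUB and zona pellucida domains, had 19.7 ± 1.67 in the knockout and 0.912 ± 0.387 in the wild type. Klk1b24, a kallikrein gene, had 42.3 ± 4.80 in the knockout and 6.74 ± 1.77 in the wild type. Prss35, a serine protease gene, had 23.1 ± 1.86 in the knockout and 4.01 ± 0.813 in the wild type. Mt3, a metallothionein gene, had 26.9 ± 6.51 in the knockout and 5.18 ± 2.25 in the wild type, while its partner Mt1 had 626 in the knockout and 577 in the wild type. Of the 8, Spink8, Wfdc15b, Gpx3 and Cuzd1 were more than 8-fold higher, and all 8 remained at least 2-fold higher after rescaling.

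Hils1 and Col1a1, which encodes a chain of type I collagen, shared a distal score of 46.9 on chromosome 11. The score was equal to the proximal score of Sgca, the sarcoglycan gene whose span holds Hils1. Their Pol II scores mirrored each other: Hils1 had 501 in the promoter and 193 in the distal class, and Col1a1 had 193 in the promoter and 501 in the distal class. Their RNA went opposite ways, with Hils1 at -1.32 and Col1a1 at 2.34. Col1a1 had 19.3 ± 1.56 in the knockout and 3.01 ± 0.565 in the wild type.

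The change of a distal-only transcript and that of its partner were compared where both were measured. In 827 pairs of transcripts of the same gene, which can share reads, the log2 changes had a Pearson r of 0.954. In 2911 pairs of named and different genes r was 0.0108. Both values describe pairs within 2 libraries, and pairs are not independent, since 1 partner can face several members. In the 2911 pairs of different genes, the member lay at a 2-fold increase or more in 212, the partner in 122 and both in 7. The member was at least 2-fold lower in 250 of these pairs, the partner in 73 and both in 6. Over all measured transcripts 5.71% were higher and 6.68% lower, so few shared pairs are not read as a result. In the same gene both were lower in 20 pairs, of 21 lower members and 24 lower partners. Partners were the more abundant side, which their choice favoured, so this is not read as a result. Each partner holds a TAF7L promoter score, and that class was 87.9% measured, against 48.7% of distal-only transcripts. Among candidates at the same gap, the one with the highest mean signal was taken. Over all 6277 pairs of named, different genes, 47.8% of members and 96.2% of partners were measured, and median signals were 0.973 for members and 15.4 for partners in the knockout, and 0.70 and 11.2 in the wild type. In 1005 of these pairs the member's wild-type signal exceeded the partner's.

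**Figure D4:**
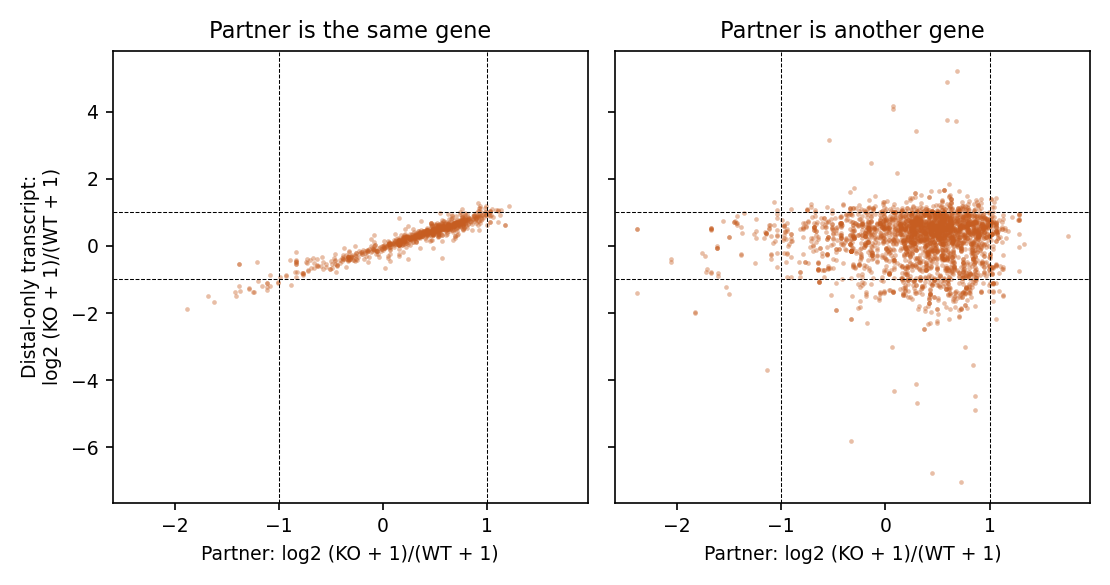
Log2 change, knockout over wild type, of the distal-only transcript (vertical) against that of the transcript with the equal TAF7L promoter score (horizontal), for 827 pairs of the same gene (left) and 2911 pairs of different named genes (right); dashed lines mark 2-fold. Points follow a line on the left (r = 0.954) and show no such line on the right (r = 0.0108).

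The strongest distal scores fell on genes within 2-fold, on lower ones and on Pltp, which was higher as deposited. Pak3, an X-linked kinase gene, had the highest score, 3160. Its signals of 0.39 in the knockout and 0.387 in the wild type were below the minimum mean of 1, so its change is not read. Chl1, a neural cell adhesion gene, had 1340 and signals of 7.64 ± 0.666 in the knockout and 30.9 ± 1.30 in the wild type, a log2 change of -1.89. Ly6c1, a surface antigen gene, had 1220 and signals of 1.96 in the knockout and 1.29 in the wild type. None of these 3 scores had an equal in the promoter or proximal class within 100 kb. Below them every score of the 10 highest among named genes had one. Zscan21 had a score of 652, the promoter score of Cops6, and signals of 14.4 in the knockout and 13.4 in the wild type. The RIKEN gene 4921509C19Rik (493) had 1.45 ± 0.400 in the knockout and 10.0 ± 0.934 in the wild type, a change of -2.17. Its partner Nsfl1c, a cofactor gene of the segregase p97, had 55.6 in the knockout and 26.1 in the wild type, a change of 1.06. Wdtc1 (490) had 45.4 in the knockout and 56.5 in the wild type. Pltp, the phospholipid transfer protein gene (531), had 21.4 in the knockout and 10.0 in the wild type, a change of 1.02 that was 0.58 after rescaling. Over measured members, higher transcripts made up 8.78% of the lowest and 5.37% of the highest quartile group of scores, and lower ones 9.39% of the lowest and 7.23% of the highest.

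Testis gene lists, assembled with earlier results of these data known, placed named genes into groups by 1 transcript per gene. Over all genes counted in this way 7.36% were at least 2-fold higher and 7.31% lower. In the sperm tail list 11 of 34 genes had a distal-only transcript, and 5 of 10 measured ones were at least 2-fold lower and 0 higher, with a median log2 change of -0.96. After rescaling 6 were lower. As deposited, the lower ones were Tppp2, Gapdhs, Ropn1, an anchoring protein gene of the fibrous sheath, Odf3, of the outer dense fibres, and 1 transcript of Odf2. Ropn1 had 137 ± 9.13 in the knockout and 350 ± 16.2 in the wild type, while its partner Ccdc14 had 3.58 in the knockout and 2.94 in the wild type. Odf3 had 68.4 ± 5.93 in the knockout and 158 ± 8.44 in the wild type. The most abundant of those within 2-fold, Tekt5, a tektin of the axoneme, had 39.7 in the knockout and 66.6 in the wild type. Of the sperm kinase and ion channel list, 2 of 6 measured genes were lower, or 4 after rescaling. The 2 were subunit genes of the sperm calcium channel, Catsper1 with 23.1 ± 2.73 in the knockout and 57.6 ± 3.71 in the wild type, and Catsper4 with 9.67 ± 1.17 in the knockout and 27.8 ± 1.35 in the wild type. Of 4 measured sperm chromatin genes 2 were lower, Hils1 and the remodeller gene Chd5, with 9.71 in the knockout and 26.9 in the wild type. In the acrosome list 1 of 33 genes had a distal-only transcript, Agfg1, with 15.7 in the knockout and 15.6 in the wild type, while 20 had a promoter-class one.

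Meiotic, piRNA and TFIID genes with a distal-only transcript were mostly within 2-fold. Of 9 measured meiotic prophase genes Tex12, of the synaptonemal complex, was higher, with 15.4 ± 3.16 in the knockout and 6.05 ± 1.92 in the wild type, and within 2-fold after rescaling. The median of this list was 0.38, or -0.01 after rescaling. Rec8, the meiotic cohesin gene, had 24.6 in the knockout and 39.1 in the wild type, and was past 2-fold lower after rescaling. None of 3 measured piRNA pathway genes passed 2-fold: Tdrd7 had 28.9 in the knockout and 29.2 in the wild type, and Rnf17, another Tudor-domain gene, 19.2 in the knockout and 19.0 in the wild type. The TFIID genes Taf2 and Taf4a, of 31 in that list, entered through secondary transcripts with partners in the same gene. Taf2 had 9.01 in the knockout and 4.56 in the wild type, and Taf4a 5.57 in the knockout and 2.62 in the wild type. The spermatogonial gene Kit had 4.08 in the knockout and 1.98 in the wild type, and Nanos2, Nanos3 and Utf1 were below the minimum.

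Over all 21627 named genes, 23.8% had a distal-only and 33.1% a promoter-class transcript, against which the somatic lists can be read. Of the Sertoli list, 8 of 24 genes had a distal-only and 1 a promoter-class transcript, and 5 of 8 measured ones were at least 2-fold higher and 0 lower, or 3 higher after rescaling. Among them were Drd4, a dopamine receptor gene (32.4 ± 3.51 in the knockout, 8.29 ± 1.61 in the wild type), Trf, the transferrin gene (16.7 in the knockout, 4.88 in the wild type), and Shbg, which encodes androgen-binding protein (13.3 in the knockout, 4.04 in the wild type). The other two were Aard (223 in the knockout, 101 in the wild type) and Dhh, the desert hedgehog ligand (18.8 in the knockout, 8.85 in the wild type). In the Leydig list 4 of 20 genes had a distal-only and 2 a promoter-class transcript. Of the 4, all measured, 2 were higher, Klk1b24 and the steroid hydroxylase gene Cyp17a1, with 274 ± 11.4 in the knockout and 126 ± 5.53 in the wild type. After rescaling Cyp17a1 was within 2-fold. The peritubular and macrophage list had 11 of 19 genes in the distal-only class, and 1 in the promoter class. Of 10 measured ones 4 were higher and 1 lower, and 0 higher after rescaling. The 4 were the complement genes C1qa and C1qc and the smooth muscle genes Cnn1 and Tagln. C1qa had 24.1 in the knockout and 8.58 in the wild type, and C1qc 21.9 in the knockout and 8.51 in the wild type, with a distal score of 54.3 that was equal to the proximal score of the neighbouring C1qb. Actg2, a smooth muscle actin gene, had 77.4 in the knockout and 200 in the wild type. In the epididymal list 6 of 20 genes were distal-only and 0 promoter-class. Spink8, Wfdc15b and Gpx3, with the values given above, were the 3 measured ones, and Gpx5, Lcn5 and Lcn8 were below the minimum. Spink8 and Wfdc15b were measured only through their knockout signals, so their direction was fixed by the filter and the count is not read as a result. Of the housekeeping list Gapdh, the glycolytic enzyme of somatic cells, had 204 ± 8.60 in the knockout and 86.1 ± 5.15 in the wild type, and was within 2-fold after rescaling. The sperm form Gapdhs, given above, was on the other side of 0. B2m and Gusb were within 2-fold.

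**Figure D5:**
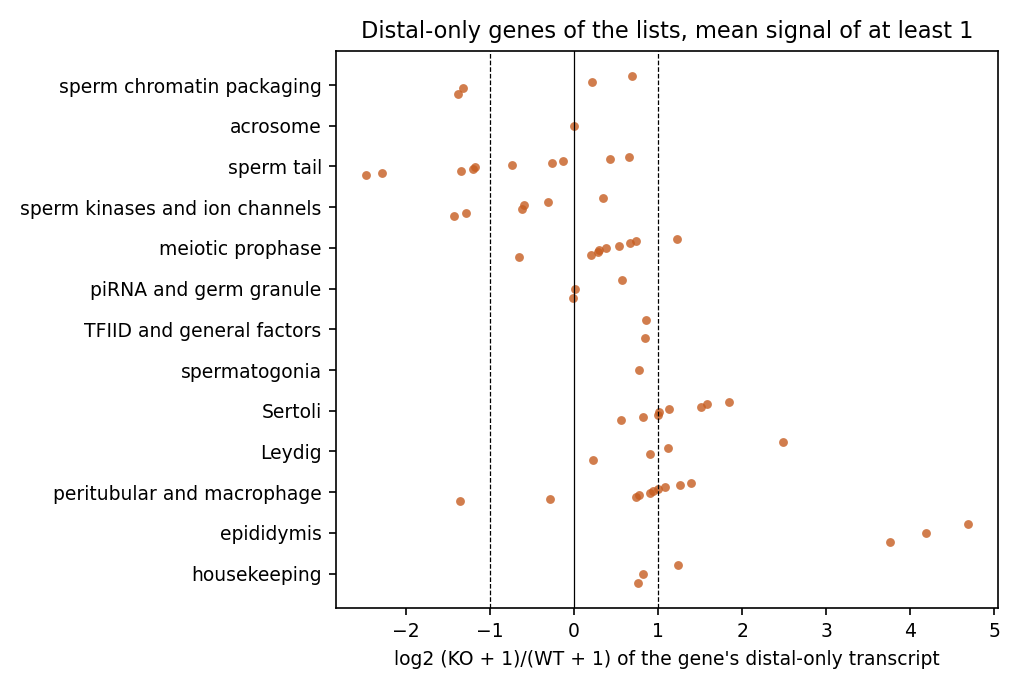
Log2 change, knockout over wild type, of the measured distal-only transcript of each listed gene (horizontal, 1 point per gene), by gene list (vertical); dashed lines mark 2-fold and points are spread vertically to be seen. The sperm tail list has 5 of 10 points at or below -1, the Sertoli list 5 of 8 at or above 1, and the 3 epididymal points lie above 3, of which Spink8 and Wfdc15b passed the minimum only through the knockout signal.

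Gene families are set against the 19.6% of all transcripts that were distal-only, and their changes against the 5.71% higher and 6.68% lower of all measured transcripts. Histone genes, which lie in clusters, had 34 of 65 (52.3%), and 9.23% in the promoter class. Of 29 measured histone genes 0 passed 2-fold upwards and 2 (6.90%) downwards. After rescaling 6 of the 29 were lower, on a scale where 1.24% of all measured transcripts were higher and 11.6% lower. Hist1h4a, of nucleosomal histone H4, was among the lower ones, with 21 in the knockout and 48.2 in the wild type. Hist2h2ac, of H2A, had 90.3 in the knockout and 122 in the wild type and was within 2-fold, also after rescaling. Reads of near-identical histone copies may not be separable. Solute carriers had 207 of 817 (25.3%), with 5 of 95 measured ones (5.26%) higher and 0 lower, and 0 of either after rescaling. Zinc finger (Zfp) genes had 154 of 765 (20.1%), and 0 of 59 measured ones passed 2-fold, or 1 lower after rescaling. Olfactory receptors had 59 of 1135 (5.20%) and vomeronasal receptors 20 of 357 (5.60%), and 0 of either family were measured. In the ADAM protease family 8 of 75 were distal-only, of which Adam21 was lower, with 4.88 in the knockout and 11.9 in the wild type.

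Clusters of genes shared 1 score. At chr12:110947269-110966412 (mm9) 23 microRNA genes, among them Mir379 and Mir495, had a distal score of 35.4, the promoter score of Mir154, and all 23 were listed at 0 in both libraries. The libraries were made from polyadenylated RNA. At the Hoxd cluster, chr2:74506366-74603199, 12 transcripts of 9 genes from Hoxd1 to Hoxd13 and Mir10b had 34.1, the promoter score of 1700109F18Rik, and 4 of them were measured. At chr13:23842956-23883364, 9 transcripts in the histone cluster had 32.4, the promoter score of Hist1h1c. At chr7:3561416-3652637, 21 transcripts of 8 genes, among them Tsen34 of the tRNA splicing endonuclease, Prpf31 of the spliceosome and the osteoclast receptor gene Oscar, had 62.0, the promoter score of Cnot3.

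Short sequence entries without a gene name made up 773 members, with a median span of 35 bp. Of these, 619 were listed at 0 in both libraries and 154 were measured. Of the 154, 59 (38.3%) were at least 2-fold higher and 28 (18.2%) lower, against 5.71% and 6.68% of all measured transcripts. Their median ratio of SD to signal was 3.92, against 0.145 over all measured members. The largest run with 1 score, 137 transcripts at chr17:27431701-27492524, held 136 of them. Restricting the count to named transcripts of at least 200 bp gave 276 higher (6.01%) and 325 lower (7.07%), against 4.86% and 5.79% of all transcripts of that kind.

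The X chromosome held 74 distal-only transcripts of 2021, or 3.66%, against 14.5% on chromosome 18 and 27.2% on chromosome 17, the lowest and highest of the autosomes. The promoter class was also small on the X, with 2.92%. Of 33 measured X-linked transcripts 0 passed 2-fold upwards and 4 (12.1%) downwards, against 5.71% upwards and 6.68% downwards of all measured transcripts.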

How the data were processed

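RNA and ChIP libraries of testis were used, 1 per group. Per the submitters' processing notes, reads were aligned to mm9 with Bowtie (ChIP) or processed with Bowtie, TopHat and Cufflinks (RNA), with no version given. The deposited RNA table holds, per the file headers, a mean signal and an SD for each of 55350 transcripts. The authors' log2 ratio of both genotypes (wild type on top) and their deposited ratio of SD to mean were not used. The authors deposited TAF7L and Pol II scores for 3 position classes of each transcript; neither the score nor the distances are defined, and 0 was read as no assigned signal. Binding and RNA rows were joined by transcript identifier, with 69 transcripts absent from the RNA table. These 69 stay in the class sizes and Pol II shares but have no RNA value. The 4 transcripts with no distal value have a proximal score and stay in the proximal class.

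Change was computed with a pseudocount of 1 over transcripts with a mean of at least 1 and called at 2-fold, with no test, since each group is 1 library. Equal scores were compared as deposited, in 3 significant digits, within 100 kb between spans. For the lists the transcript with the highest mean stood for a gene. Named genes are the 10 highest distal scores and wild-type signals and the 8 largest changes each way. The changes required a mean of at least 5, a span of at least 200 bp and an SD below the mean. Also named are the 5 highest Pol II scores, the 3 lowest distal scores, and the most abundant of each list. Members without a gene name were passed over in these choices. Other listed genes and runs were chosen after their values were seen. Some genes that the rule takes are named with no values or left out. Members and lists were chosen with earlier results of these data known. The calculations used Python 3.11.15 and pandas 2.3.3 and were tested on simulated data.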

Additional observations from a re-analysis of the deposited data

How the results depend on the processing

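No paired analysis was possible because each group has 1 library and no test was made. With a pseudocount of 0.1, 871 distal-only transcripts were past 2-fold upwards in the knockout (369 in the report), with a median log2 change of 0.47. Rescaling the knockout to a median of 0 over all transcripts gave 88 higher, 727 lower and a median of 0.010. Counting 1 transcript per gene name gave 220 higher (7.54%) and 225 lower (7.71%), against 7.36% and 7.31% of all genes counted this way. The median was then 0.38, with 56.8% measured and 35.4% with a Pol II promoter score. Genes with only distal-only transcripts gave 182 higher and 177 lower, which is 10.7% and 10.4% of 1708 measured genes (1 transcript each). These shares are set against the same 7.36% and 7.31% of all genes. The 6.98% and 7.98% in the report count transcripts and not genes. Distal scores at or above the median gave 169 higher (6.02%) and 213 lower (7.59%), against 5.71% and 6.68% of all measured transcripts. They had a median of 0.34, 51.6% measured and 42.8% with a Pol II promoter score. A minimum mean of 5 gave a median of 0.26 and 24.0% measured, and a minimum of 0.1 gave 77.6% measured. Pol II promoter scores at or above the median of all scored transcripts were found at 5.73% of members. The share with an equal TAF7L promoter or proximal score was 95.3% over the whole chromosome, 91.7% within 100 kb, and 93.4% when each distinct score was counted once. The cause of these shifts was not tested, apart from the smaller numbers of transcripts by construction. The unknown ChIP depth and the undefined SD limit all scores and signals, and no difference between genotypes has a replicate check.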
